A study of Mus musculus with 3 samples.

Results

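The 8 genes described here are Fabp7, Apod, Pmp22, Mbp, Erbb3, S100b, Npy and Gfap, listed as genes of olfactory ensheathing glia and Schwann cells. They were chosen by name, and 20 of the 45101 probe sets of the array, for 8 of the 18193 genes with a probe set of 1 symbol, measure them. The olfactory epithelium of Tgn1-2G transgenic mice, male and female, was taken at postnatal days 5 to 8, and the labels give each fraction the number 32, read here as mice. Sorting by fluorescence gave 1000000 cells with strong GFP (the GFP+++ fraction), 1300000 with weak GFP (GFP+) and 6800000 without it (GFP-), and the RNA of each fraction went onto 1 array. By the submitters' account GFP+++ was rich in immature neurons and GFP+ slightly rich in mature ones, while GFP- held every cell type with fewer immature neurons. All 3 fractions carry the transgene, which is known from other work to express GFP from control elements of Neurog1, and none was sorted for glia.

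Olfactory ensheathing glia are the glial cells that wrap bundles of olfactory axons on their way from the epithelium to the brain. Like Schwann cells, the myelinating and supporting glia of peripheral nerve, they arise from the neural crest and depend on the transcription factor Sox10. Ensheathing glia share many genes with Schwann cells that do not make myelin, and they surround olfactory axons without a myelin sheath. Neuregulins on axons signal to Schwann cells through the receptor pair Erbb2 and Erbb3.

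With 1 array per fraction no spread between replicates exists, no test was run, and a fold describes these arrays. Values are MAS5 signals on a linear scale, and signals under the pooled median of all probe sets, 104, were raised to that floor before log2 folds were taken. If either signal was under the floor, the fold is only a bound, written with the words at least. Genes were called at 2-fold or more. Between probe sets of the same gene, log2 folds had a pooled SD of 0.30 for GFP+++ against GFP-, 0.24 for GFP+ against GFP- and 0.30 for GFP+++ against GFP+, which holds nothing of the spread between animals or sorts. Signals had medians of 88.2 (GFP+++), 107 (GFP+) and 118 (GFP-), and scaling the arrays to a common median moved the median log2 fold of all genes from 0.01 to 0.42 for GFP+++ against GFP-. In bulk fractions, fewer cells of a type and less RNA per cell cannot be told apart.

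Of the 8 genes, 7 passed the floor on at least 1 array, and 6 of these were lower by 2-fold or more in GFP+++ relative to GFP-: Apod, Pmp22, Fabp7, S100b, Erbb3 and Npy. Over all genes 12.4% of 12235 were called lower in this way, and 1.92% were called higher. With arrays scaled to a common median these shares were 8.58% lower and 9.27% higher. Pmp22 and S100b passed the floor through GFP+ and GFP- alone, so their direction here was fixed by passing it. Mbp stood apart, at a log2 fold of 0.82 on its brightest probe set, but its probe sets disagreed in direction. Gfap lay under the floor on every array. The median log2 fold of the 7 genes was -1.80, with 2 of the values being bounds, against 0.01 over all genes tested.

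**Figure D1:**
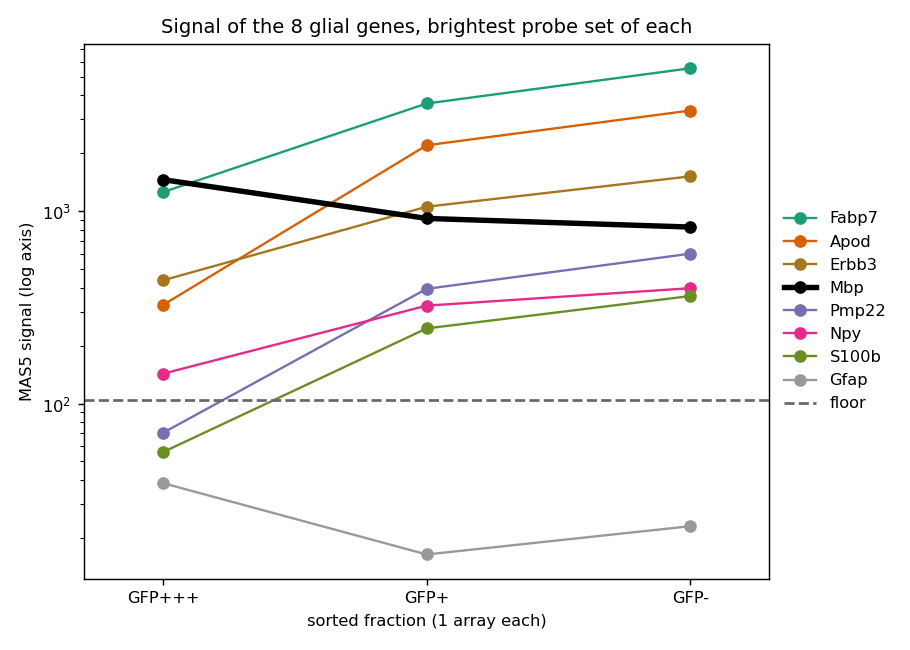
MAS5 signal (log axis) of the brightest probe set of each of the 8 genes on the GFP+++, GFP+ and GFP- arrays, 1 point per array, with the floor of 104 dashed. In Fabp7, Apod, Erbb3, Pmp22, Npy and S100b the signal is lowest in GFP+++ and highest in GFP-, Mbp runs the other way, and Gfap stays under the floor.

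Fabp7 encodes the brain lipid binding protein, a carrier of fatty acids in radial glia, astrocytes and ensheathing glia. Its 1 probe set had a signal of 1258 in GFP+++, with 3631 in GFP+ and 5534 in GFP-. The order GFP+++, GFP+, GFP- ran upward, with GFP+++ at 22.7% of GFP- (log2 -2.14, 4.40-fold lower) and 34.7% of GFP+ (log2 -1.53). The GFP+++ signal was still far above the floor.

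Apod encodes a secreted lipocalin that binds lipids and is abundant in peripheral nerve glia, and it is also made by fibroblasts. The brighter of its 2 probe sets gave 326 in GFP+++, against 2202 in GFP+ and 3337 in GFP-. This was the largest measured difference among the 8 genes, 10.2-fold lower in GFP+++ than in GFP- (log2 -3.36) and 6.76-fold lower than in GFP+. The second probe set gave 72.9 in GFP+++, against 347 in GFP+ and 563 in GFP-, with GFP+++ at least 5.40-fold below GFP-. Both probe sets had the same order of the fractions.

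The windows around the transcription starts of Fabp7, Apod and Npy are shown because these genes were lower together in GFP+++ with every array above the floor, and because they differ widely in base composition. They are RefSeq windows of the mouse build GRCm38.p6, 250 bases before to 50 after the start, on the gene's own strand. Fabp7 is at chr10:57784673-57784972 (plus strand), Apod at chr16:31314759-31315058 (minus strand) and Npy at chr6:49822460-49822759 (plus strand). Capitals mark matches to the motifs searched.
Fabp7: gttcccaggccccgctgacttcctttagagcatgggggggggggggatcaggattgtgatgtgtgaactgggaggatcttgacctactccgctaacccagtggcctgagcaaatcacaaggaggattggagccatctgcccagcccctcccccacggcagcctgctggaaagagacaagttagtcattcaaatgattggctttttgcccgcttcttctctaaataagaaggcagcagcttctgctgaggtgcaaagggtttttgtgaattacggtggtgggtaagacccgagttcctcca
Apod: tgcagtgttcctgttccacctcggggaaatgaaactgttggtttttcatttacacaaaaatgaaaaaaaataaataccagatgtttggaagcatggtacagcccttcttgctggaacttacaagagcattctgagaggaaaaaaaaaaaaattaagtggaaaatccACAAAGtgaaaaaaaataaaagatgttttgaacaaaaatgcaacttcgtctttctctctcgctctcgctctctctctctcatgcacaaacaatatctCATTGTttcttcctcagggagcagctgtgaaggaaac
Npy: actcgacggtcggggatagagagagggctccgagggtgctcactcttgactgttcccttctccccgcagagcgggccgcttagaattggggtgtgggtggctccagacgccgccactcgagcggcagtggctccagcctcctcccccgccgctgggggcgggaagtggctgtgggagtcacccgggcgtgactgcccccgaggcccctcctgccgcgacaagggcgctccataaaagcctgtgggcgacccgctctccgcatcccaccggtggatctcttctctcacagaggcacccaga
The letters searched, on both strands, were ACAAAG and ACAATG, core forms bound by Sox factors, GTGGGAA, a core form bound by the Notch effector RBPJ, and TATAAA. These motifs were chosen with results of these data known. Of all 32851 windows 18.7% hold ACAAAG, 12.6% ACAATG, 6.38% GTGGGAA and 13.6% TATAAA. Among the 9 windows of the 6 member genes in that table (Apod, Fabp7, Gfap, Npy, Pmp22 and S100b), only that of Apod held a match, with ACAAAG beginning at base -84 and ACAATG, on the opposite strand, at base 14 after the start. A match is a description of letters and not a binding site. The share of G and C was 37.3% for Apod, 54.0% for Fabp7 and 68.0% for Npy, around a median of 52.7% over all windows.

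Pmp22 encodes a small membrane protein of compact peripheral myelin, which is found in fibroblasts and epithelia as well. Its 1 probe set gave 70.5 in GFP+++, against 395 in GFP+ and 602 in GFP-. Only GFP+++ lay under the floor, which makes the gene at least 5.76-fold lower there relative to GFP- and at least 3.78-fold lower than in GFP+.

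Erbb3 encodes the neuregulin receptor that Schwann cell precursors need to survive and migrate. On the probe set with signal it gave 437 in GFP+++, against 1055 in GFP+ and 1518 in GFP-. All 3 arrays were above the floor, and GFP+++ was 3.47-fold below GFP- (log2 -1.79) and 2.41-fold below GFP+. The second Erbb3 probe set had at most 4.23 on any array and gave no fold.

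S100b encodes a calcium binding protein long used to mark Schwann cells, ensheathing glia and astrocytes. The brighter of its 2 probe sets gave 56.0 in GFP+++, against 246 in GFP+ and 362 in GFP-, which puts GFP+++ at least 3.47-fold below GFP-. With the floor at the 65th percentile of all signals the log2 fold against GFP- was -0.39, short of 2-fold, and GFP+++ against GFP+ gave no value. The second gave 17.8 in GFP+++, against 94.7 in GFP+ and 150 in GFP-, and passed the floor in GFP- alone. Both had the lowest signal in GFP+++ and the highest in GFP-.

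Npy encodes neuropeptide Y, a peptide transmitter that ensheathing glia are known to make during development and that has been described in some microvillar cells of the epithelium. Its 1 probe set gave 143 in GFP+++, against 323 in GFP+ and 398 in GFP-. GFP+++ lay little above the floor and was 2.78-fold below GFP- (log2 -1.48), the smallest measured difference among the 6 lower genes. With the floor at the 65th percentile of all signals the log2 fold was -0.53, so Npy no longer passed 2-fold.

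Gfap encodes the intermediate filament of astrocytes and of some Schwann and ensheathing cells. The highest of its 3 probe sets gave 38.6 in GFP+++, against 16.4 in GFP+ and 23.0 in GFP-, and the other 2 stayed at or under 13.5. No order between the fractions can be read from signals under the floor.

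Mbp encodes myelin basic protein, which holds the layers of compact myelin together, and the same locus is known to make the longer golli proteins from an upstream start, in neurons and immune cells as well as in glia. It is measured by 8 probe sets, more than any other member. The brightest, 1425264_s_at, gave 1459 in GFP+++, against 917 in GFP+ and 827 in GFP-, and was 1.76-fold higher in GFP+++ relative to GFP- (log2 0.82). The next, 1433532_a_at, gave 521 in GFP+++, against 694 in GFP+ and 740 in GFP-, and so was lower in GFP+++ (log2 -0.51). The first ordered the fractions opposite to the second, and neither passed 2-fold, although the first reached a log2 fold of 1.23 with arrays scaled to a common median.

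Of the 7 Mbp probe sets at or above the floor in GFP+++ or GFP-, 2 were higher and 5 lower in GFP+++, and 0 passed 2-fold in either direction. The other higher one, 1425263_a_at, gave 145 in GFP+++ and lay under the floor in GFP+ (82.7) and GFP- (90.1), so it had to be higher, by at least 1.39-fold. The other lower ones were 1456228_x_at (log2 -0.58), 1419646_a_at (-0.39), 1436201_x_at (-0.42) and 1454651_x_at, which lay under the floor in GFP+++ and was at least 1.26-fold lower. The probe set 1451961_a_at reached 101 at most, in GFP-, and gave no fold. In the 5 probe sets with signal on both of these arrays the log2 folds spanned 1.39, and in the 277 genes with 5 or more such probe sets the median span was 0.67, with 11 genes (3.97%), Mbp counted, spanning as much. The suffixes _s_at and _x_at mark probe sets that may bind several transcripts. A probe set without them, such as 1433532_a_at, need not be specific to a single transcript. Which Mbp transcripts each probe set detects was not analysed here.

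**Figure D2:**
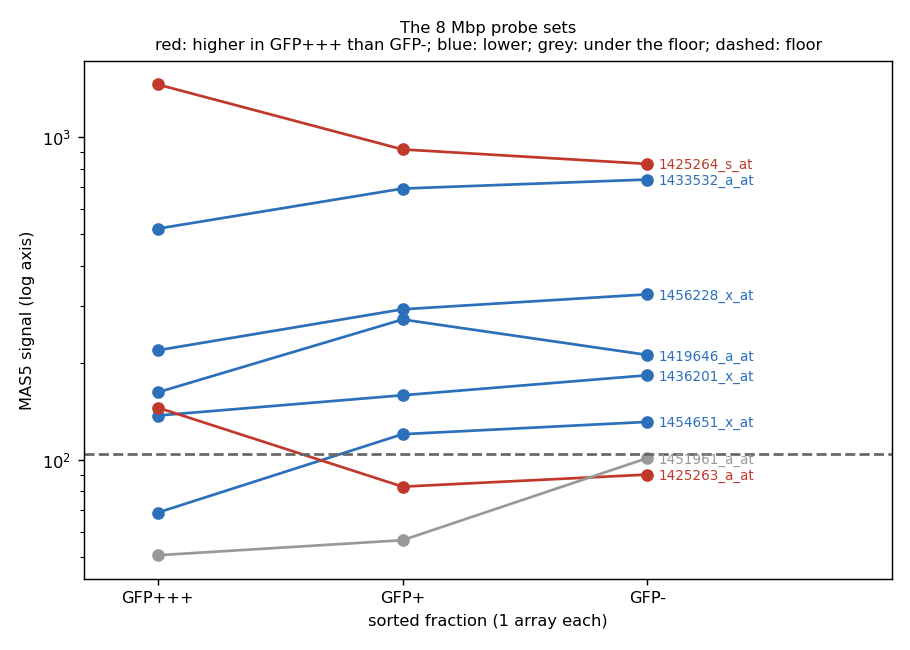
MAS5 signal (log axis) of the 8 Mbp probe sets on the 3 arrays, 1 point per array, with the floor of 104 dashed. The 2 red probe sets are higher in GFP+++ than in GFP-, the 5 blue ones lower, and the grey one is under the floor throughout.

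Mbp was then set beside the other genes. On their brightest probe sets the 6 others that passed the floor had log2 folds of GFP+++ against GFP- from -3.36 to -1.48. Their median was -1.97. Pmp22 and S100b among them were bounds whose direction was fixed by passing the floor, and the S100b bound enters that median. The lowest Mbp probe set, in contrast, was at -0.58. The dimmer S100b probe set, a bound at -0.52, lay above that value, and so did Npy (-0.53) and S100b (-0.39) with the floor at the 65th percentile. Mbp lay 2.78 above that median on its brightest probe set, 1.58 with the median fold over probe sets of each gene, and 1.46 on 1433532_a_at, the brightest without the suffixes _s_at and _x_at. The size of the gap thus turned on the probe set, and so did the direction of Mbp itself, which was -0.39 with the median over probe sets. These figures describe the genes named and are no test of them.

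GFP+ against GFP- shares the GFP- array with the comparison above. Here 0 of the 7 genes passed 2-fold either way, against 0.804% called lower and 0.607% called higher of 12196 genes. The GFP+ signal was 65.6% of GFP- for both Fabp7 and Pmp22, 66.0% for Apod, 67.9% for S100b, 69.5% for Erbb3 and 81.2% for Npy. The first 5 of these had log2 folds from -0.61 to -0.52, whereas in GFP+++ against GFP- they ran from -3.36 to -1.79. Npy was at -0.30 in GFP+ against GFP-. This level was not particular to the glial genes. Of the cell type markers given below, the median log2 fold was -0.68 for fibroblasts, -0.32 for immune cells, -0.58 for pericytes and -0.13 for endothelium, with 1 bound in each of the last 2. Mbp was at 0.15 on its brightest probe set, and of its 6 probe sets at or above the floor 2 were higher and 4 lower, from -0.21 to 0.37. The median of the 7 genes was -0.56, against -0.01 over all genes tested.

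GFP+++ against GFP+ uses both arrays again. The 6 genes named above were each lower by 2-fold or more in GFP+++, with 9.34% of 11881 genes called lower over the whole array and 0.985% higher. Their log2 folds ran from -2.76 for Apod to -1.17 for Npy, with Pmp22 and S100b as bounds, and the median of the 7 genes was -1.27 against -0.02 over all genes. Mbp was at 0.67 on its brightest probe set, and 5 of 7 probe sets were lower. The count of lower genes was 4 with arrays scaled to a common median, 5 with quantile normalization and 3 with the floor at the 65th percentile.

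**Figure D3:**
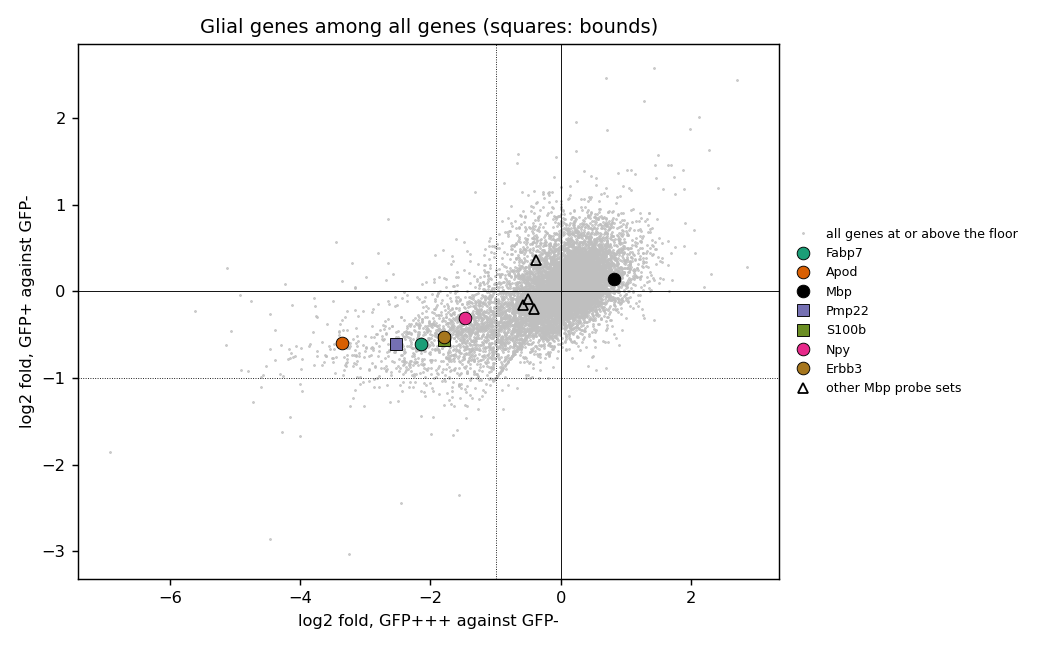
Log2 folds of GFP+++ against GFP- (horizontal) and GFP+ against GFP- (vertical), which share the GFP- array, for all genes at or above the floor on any array (grey) and the 7 glial genes with signal, with squares where GFP+++ is under the floor, triangles for the other Mbp probe sets with signal on every array and dotted lines at 2-fold lower. The 6 lower genes lie between -3.36 and -1.48 on the horizontal axis, and Mbp lies at 0.82 with its other probe sets between -0.58 and -0.39.

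Further glial markers were measured. Sox10 gave 12.2 in GFP+++, against 202 in GFP+ and 336 in GFP-, so that GFP+++ was at least 3.22-fold below GFP-. Foxd3, a neural crest factor, gave 35.5 in GFP+++, against 89.2 in GFP+ and 179 in GFP-, and Frzb, a secreted Wnt antagonist of ensheathing glia, gave 91.4 in GFP+++, against 246 in GFP+ and 361 in GFP-. Ngfr, the low affinity neurotrophin receptor, passed the floor in GFP- alone (111). Of 12 glial markers, the 8 genes included, 11 passed the floor in GFP+++ or GFP- and 8 were lower by 2-fold or more, but 4 of these (Pmp22, S100b, Sox10 and Frzb) lay under the floor in GFP+++, so passing it fixed their direction. The 12 had summed signals of 3931 in GFP+++, against 9369 in GFP+ and 13587 in GFP-. Few genes dominated these sums. The largest parts in GFP- were Fabp7 (5534) and Apod (3337), and the largest in GFP+++ was the brightest Mbp probe set (1459).

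Other cell types moved with the glial genes. Of 6 fibroblast markers all 6 were lower by 2-fold or more in GFP+++ relative to GFP-, with summed signals of 2369 in GFP+++, against 24836 in GFP+ and 40795 in GFP-, and a median log2 fold of -4.30. Of 8 immune markers 6 passed the floor, all lower by 2-fold or more with 3 of the values being bounds, with sums of 560 in GFP+++, against 15718 in GFP+ and 17421 in GFP-, and Cd3e and Cd79a stayed under the floor. Of 3 pericyte markers 2 were lower by 2-fold or more, with 2 of the 3 values being bounds. Their sums were 3585 in GFP+++, against 9671 in GFP+ and 14882 in GFP-. Most of these sums came from Rgs5 (3523 in GFP+++, 9177 in GFP+ and 14137 in GFP-), the only measured one. The other lower one, Pdgfrb, lay under the floor in GFP+++, so passing it fixed its direction. Of 4 endothelial markers 0 were, with 3 of the values being bounds, but with the floor at the 35th percentile 3 were and the median was -1.49. Their sums were 255 in GFP+++, against 527 in GFP+ and 628 in GFP-. Apod and Pmp22 are known in fibroblasts too, and the part of these cells in their values was not tested. Of 7 immature neuron markers 2 were higher by 2-fold or more, against 1.92% of all genes. With arrays scaled to a common median 4 were, against 9.27% of all genes. With quantile normalization 1 was, against 3.01% of all genes. The 7 summed to 69779 in GFP+++, against 44765 in GFP+ and 55175 in GFP-. The 6 mature neuron markers summed to 40528 in GFP+++, against 58686 in GFP+ and 51626 in GFP-, with 0 past 2-fold between GFP+++ and GFP-.

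In the wider lists that follow, every gene given as at least so many fold lower was under the floor in GFP+++, so it could only come out lower, and the counts of lower genes are descriptions only. Myelin genes did not go one way. Of 10 genes examined, 5 passed the floor in GFP+++ or GFP-: 2 were lower by 2-fold or more and 0 higher, and the median was -0.34 (0.08 with arrays scaled to a common median). Mal, a proteolipid of myelin and epithelial membranes, gave 92.0 in GFP+++, against 468 in GFP+ and 690 in GFP-, so that GFP+++ was at least 6.61-fold below GFP-. Cldn11, a claudin of oligodendrocyte myelin, was at least 4.77-fold lower. Pllp, the membrane protein plasmolipin, gave 1958 in GFP+++, against 1344 in GFP+ and 1042 in GFP-, and was 1.88-fold higher, and Ncmap, a myelin protein of peripheral nerve, was 1.74-fold higher (313 in GFP+++ against 180 in GFP-). Both passed 2-fold with arrays scaled to a common median, and Ncmap also with quantile normalization. Cnp, an enzyme of myelinating glia, lay at -0.34, and Mag, Mog, Mobp, Gjb1 and Omg stayed under the floor on every array.

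**Figure D4:**
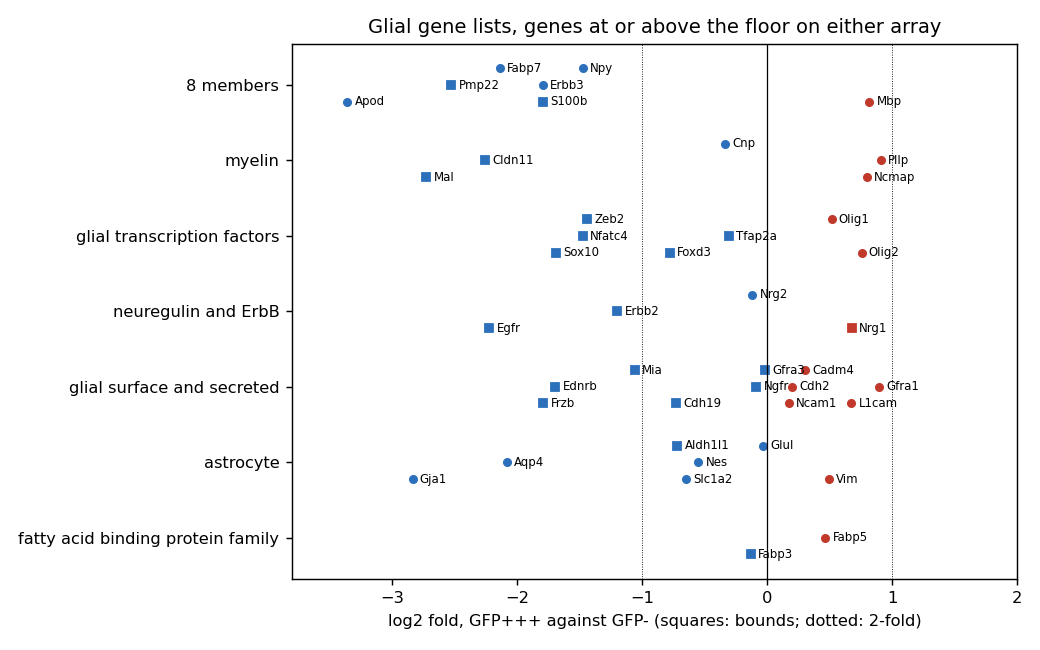
Log2 folds of GFP+++ against GFP- for the 7 glial genes with signal and for 6 wider lists, 1 point per gene, with squares where 1 array lay under the floor and dotted lines at 2-fold. Lower genes reach -3.36 (Apod), and Pllp, Gfra1, Mbp and Ncmap lie between 0.80 and 0.91.

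Of 10 glial transcription factors 7 passed the floor, 3 lower by 2-fold or more and 0 higher, and the median was -0.78, with 5 bounds. All 3 lower ones are bounds, and with arrays scaled to a common median Olig2 was higher by 2-fold or more. Besides Sox10, Nfatc4 was at least 2.78-fold lower (77.0 in GFP+++ against 290 in GFP-) and Zeb2 at least 2.72-fold lower (18.2 in GFP+++ against 284 in GFP-). The oligodendrocyte factors Olig1 and Olig2 were bright throughout: Olig1 gave 9377 in GFP+++, against 6513 in GFP+ and 6561 in GFP-, and Olig2 gave 3560 in GFP+++, against 1871 in GFP+ and 2109 in GFP- (log2 0.76 against GFP-). Both were highest in GFP+++, although the oligodendrocyte myelin genes Mog, Mobp and Mag were under the floor.

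Partners of Erbb3 were measured as well. Of 7 neuregulin and ErbB genes 4 passed the floor, 2 of them lower by 2-fold or more, and the median was -0.66. Erbb2, the co-receptor of Erbb3, gave 80.5 in GFP+++, against 158 in GFP+ and 239 in GFP-, so that GFP+++ was at least 2.29-fold below GFP-, and Egfr was at least 4.67-fold lower. The ligand Nrg1 gave 167 in GFP+++, against 166 in GFP+ and 88.0 in GFP-, which puts GFP+++ at least 1.60-fold above GFP-. Only GFP- lay under the floor, so Nrg1 could only come out higher in GFP+++. Nrg2 lay at -0.12, and Nrg3, Nrg4 and Erbb4 stayed under the floor.

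Surface and secreted proteins of these glia parted. Of 12 listed, 11 passed the floor, 3 lower by 2-fold or more and 0 higher, and the median was -0.02, which was 0.35 with arrays scaled to a common median. Under that scaling 2 were lower and 2, Gfra1 and L1cam, higher by 2-fold or more. Besides Frzb, the lower ones were Ednrb, the endothelin receptor of neural crest cells (at least 3.23-fold), and Mia (at least 2.08-fold). The 4 brightest are adhesion molecules or receptors that neurons also carry, Ncam1 (0.17), Cdh2 (0.20), L1cam (0.67) and Gfra1 (0.89), and each was highest in GFP+++.

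In pattern over the 3 arrays, the genes most like Fabp7 were Aqp4, Notch2, Ces1d, Cnn2 and Ephx1, among 2627 genes of like signal above the floor throughout. The distance in the pair of log2 folds against GFP- was 0.06 for Aqp4 and 0.14 for Ephx1. Most like the brightest Mbp probe set, among 4681 genes, were Lsm10, Hopx, 4930526I15Rik, Kcnmb4 and Amz2, at distances of 0.03 to 0.05. With 3 arrays many genes share such a pattern.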

How the data were processed

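The authors deposited 1 intensity value per probe set and array, on a linear scale, and the submitters' processing notes name MAS5 as the tool. Version and settings of MAS5: not given in the sources used here. On each array these values had a 2% trimmed mean of 500.0, and arrays were scaled to a common one. MAS5 detection calls were not used here, so probe sets without signal still have positive values, and the pooled median signal served as floor. The platform annotation pairs 34945 of the 45101 probe sets, outside the 64 controls, with a single symbol, 932 with several and 9211 with none. Each gene was represented by its probe set of highest mean signal, and all probe sets of the 8 genes were also examined.

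Folds were computed in Python 3.11.15 with pandas 2.3.3 and numpy 2.4.6, and the steps were tested on simulated arrays. Each fraction had 1 array, so no test, SD or p-value between fractions exists, and precision is limited by the number of arrays. The members, lists and markers were chosen with earlier results of these data known. All 8 members are named. Wider lists name up to 4 of their brightest members, any member 2-fold or more above GFP- in GFP+++, and fixed cell type markers. Ncmap, Ednrb, Mia, Slc1a2, Zeb2, Nrg3, Nrg4, Erbb4 and the genes under the floor were named after their values were seen. The 5 genes most like Fabp7 and Mbp had a mean signal within 2-fold and the smallest Euclidean distance in the log2 folds against GFP-. Some genes of the lists are not reported here. Alternatives changed the scaling, the floor or the probe set.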

Additional observations from a re-analysis of the deposited data

How the results depend on the processing

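No paired analysis was possible because each group had 1 array, and for the same reason no array could be left out. The count of members lower by 2-fold or more in GFP+++ relative to GFP- was 6 under 6 of 7 alternatives and 4 with the floor at the 65th percentile. In GFP+++ against GFP+ it was 6 as reported and 3 with that floor, where 6 members were measured, 4 with median scaling and 5 with quantile normalization. In GFP+ against GFP- it was 0 throughout. The setting without further scaling could not move these counts, because the deposited arrays already had a common trimmed mean. Leaving out the suffixes _x_at and _s_at changed the probe set of Mbp alone, so only Mbp could move the counts there. The distance of Mbp from the median of the other members stayed above 0 under all 7 alternatives in each comparison. Not all of these could move it. A constant factor per array shifts Mbp and the others alike, so median scaling could change this distance only through the floor. The setting without further scaling could not change this distance. For GFP+++ against GFP- it was 2.28 with the floor at the 65th percentile, 3.23 with the floor at the 35th, 1.58 with the median over probe sets and 1.46 without the suffixes _x_at and _s_at. For GFP+++ against GFP+ it was 2.50 with the floor at the 35th percentile, 1.19 with the median over probe sets and 0.99 without those suffixes. For GFP+ against GFP- it was 0.46 with the median over probe sets and 0.49 without those suffixes, against 0.73 as reported. The log2 fold of Mbp itself changed direction with the choice of probe set: for GFP+++ against GFP- it was -0.39 with the median over probe sets and -0.51 without those suffixes, and for GFP+++ against GFP+ it was -0.21 and -0.41. With median scaling it was 1.23 for GFP+++ against GFP-, past 2-fold. Of 49 alternative values of single members in GFP+++ against GFP-, 35 stayed within 1 SD between probe sets of a gene. Of the rest, 12 moved further and 2, both of Mbp, changed direction. Some of the 35 could not have moved. They include all values without further scaling and those of every gene but Mbp without the suffixes. They also include genes with 1 probe set under the median over probe sets, and genes far above the floor when the floor was changed. The count of 35 is therefore no measure of stability. The lower members stayed below 0 under all 7 alternatives wherever they passed the floor, but part of this was settled in advance. Pmp22 and S100b lay under the reported floor in GFP+++, so passing it put them below 0. With the floor at the 65th percentile the same held for Npy. The setting without further scaling only repeated the reported values. With the floor at the 35th percentile Pmp22 and S100b lay above it in GFP+++, at log2 folds of -3.09 and -2.69 against GFP-. In GFP+++ against GFP-, the floor at the 65th percentile left 1 myelin gene, 0 glial transcription factors, 0 neuregulin and ErbB genes and 0 surface genes lower by 2-fold or more, against 2, 3, 2 and 3 as reported, and that at the 35th left 2, 5, 2 and 5. Signals near the floor limit Npy, S100b and Pmp22.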

Other observations

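Of 8 astrocyte genes 7 passed the floor in GFP+++ or GFP-, 2 of them lower by 2-fold or more in GFP+++ and 0 higher, with a median log2 fold of -0.65. Gja1, the gap junction protein connexin 43, gave 757 in GFP+++, against 3585 in GFP+ and 5405 in GFP- (log2 -2.84 for GFP+++ against GFP-). Aqp4, a water channel of astrocyte end feet, gave 953 in GFP+++, against 2692 in GFP+ and 4027 in GFP-. Both genes are known outside glia, and the GFP+ signal of Gja1 was at a log2 fold of -0.59 against GFP-. Vim, the filament vimentin, was highest in GFP+++ (15917, against 8719 in GFP+ and 11311 in GFP-). Glul, the glutamine synthetase, lay at -0.03. On its brightest probe set the glutamate transporter Slc1a2 was highest in GFP+ (1242), with 263 in GFP+++ and 412 in GFP-. There it was 3.01-fold higher in GFP+ relative to GFP-, a comparison in which 0.607% of all genes were higher by 2-fold or more. With the median fold over probe sets of each gene, 0 astrocyte genes were higher by 2-fold or more in that comparison. The call of Slc1a2 thus turned on the probe set.

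Among relatives of Fabp7, Fabp5, the epidermal form, gave 10658 in GFP+++, against 6193 in GFP+ and 7714 in GFP-, and Fabp3 passed the floor in GFP- alone (114). The other 4 relatives on the list, Fabp1, Fabp2, Fabp4 and Fabp6, stayed under the floor on every array. Of the neuropeptide Y receptors and the related peptide Pyy, 0 of 6 genes passed the floor on any array, with Npy4r at 66.6 in GFP+++, 50.2 in GFP+ and 59.0 in GFP-. A signal under the floor does not show that a gene is silent.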
